A study of Mus musculus with 8 samples.

Results

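Wnt11, Wnt4 and Wnt5a, the R-spondins Rspo1 and Rspo3, their receptors Lgr4, Lgr5 and Lgr6, and the secreted Wnt-binding proteins Sfrp1 and Sfrp2 were followed across 4 Smo genotypes in mouse nephron progenitors. These 10 genes were taken by symbol from a table of 24539 genes, and all 10 symbols were found in it. Wnt11 was put in the list because its level was higher in the groups with more Smo activity, so its values are given as a description with no test. The other 9 genes were chosen by family, with results of these libraries already known.

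Nephron progenitors are the mesenchymal cells at the tips of the growing kidney from which the nephrons form. The cells were sorted for Six2GFPcre, a transgene whose GFP and Cre fusion is driven in Six2-expressing cells, from E18.5 kidneys, and their polyadenylated RNA was sequenced. Every group carried Six2GFPcre, the controls included, and Cre acts only in cells that make it or descend from such cells. KO-labelled libraries came from Smo c/c embryos, Het-labelled libraries from Smo c/+ embryos and WT-labelled libraries from Smo +/+ embryos. SmoM2-labelled libraries came from Rosa26 SmoM2/+ embryos that were also Smo +/+, in which Cre switches on an active form of Smo, the protein that relays Hedgehog signals into the cell. Each group had 2 libraries, and whether a library held cells of 1 embryo or of several is not given in the sources used here. P-values measure the spread between these libraries.

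Wnt proteins bind Frizzled receptors together with Lrp5 or Lrp6 and stabilise beta-catenin, or act through Ror and Ryk receptors without it. R-spondins bind Lgr4, Lgr5 and Lgr6 and draw the ubiquitin ligases Znrf3 and Rnf43 away from Frizzled, so that a cell responds more strongly to Wnt. In the developing kidney, Wnt9b from the ureteric bud acts on the progenitors, which then make Wnt4 as they turn into epithelium. Sfrp proteins carry a Frizzled-like domain that binds Wnt ligands outside the cell.

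The listed counts summed to between 4422305 and 10305398 per library, with the KO-labelled libraries the shallowest. Smo itself was at 12.1 ± 1.39 CPM (counts scaled to library size, as CPM, mean ± SD, n = 2) in the KO-labelled, 19.2 ± 6.73 CPM among Het-labelled, 369 ± 8.48 CPM among WT-labelled and 617 ± 17.1 CPM among SmoM2-labelled libraries. The Het-labelled level lay near the KO-labelled level, which goes against the label, so libraries are named by their labels throughout. In the SmoM2-labelled libraries, the Smo counts do not separate the native gene from any reads of the active form. Both KO-labelled libraries had the male pattern of Xist and Y-linked counts and both Het-labelled libraries the female pattern, while the other 2 groups held 1 of each. The labels give no batch, and a batch that followed the KO- and Het-labelled against the WT- and SmoM2-labelled libraries cannot be told apart from the genotypes. The sorted identity was checked on 10 progenitor markers, each with more than 3 counts in every library. Their summed level was 4078.2 to 4673.5 CPM among KO-labelled, 5065.6 to 5493.9 CPM among Het-labelled, 3513.7 to 4006.2 CPM among WT-labelled and 3785.3 to 3835.1 CPM among SmoM2-labelled libraries. Against WT-labelled libraries, 3 of the 10 were called higher and 1 lower in KO-labelled libraries, and 5 higher in Het-labelled libraries. Over all tested genes 11.6% were called higher and 11.4% lower in the former comparison and 13.1% higher in the latter. The 1 marker called lower was thus near the share of all genes. Cited1, a marker of the least committed progenitors, averaged 148 CPM among WT-labelled and 439 CPM among Het-labelled libraries. The part of these markers in the results that follow was not tested.

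The promoter sequence of Wnt11, the gene with the widest range of levels among the 10, is shown beside that of Lgr6, which had the widest range in the opposite direction. Both are RefSeq sequences of build GRCm38.p6 that end at the base before the annotated gene. Capitals mark ATCAAAG, the core letters of sites bound by TCF and LEF, the DNA-binding partners of beta-catenin.
Wnt11: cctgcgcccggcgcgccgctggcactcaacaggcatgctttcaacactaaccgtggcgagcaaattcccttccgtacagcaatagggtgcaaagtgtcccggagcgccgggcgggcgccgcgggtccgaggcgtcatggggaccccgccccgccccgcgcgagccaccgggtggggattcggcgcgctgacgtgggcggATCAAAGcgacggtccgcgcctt
Lgr6: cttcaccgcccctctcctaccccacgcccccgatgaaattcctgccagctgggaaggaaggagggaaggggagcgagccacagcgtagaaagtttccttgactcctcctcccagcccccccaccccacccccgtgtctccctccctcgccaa

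The Wnt11 sequence has 222 bases, at chr7:98834862-98835083 on the plus strand, and the Lgr6 sequence has 152 bases, at chr1:135105375-135105526 on the minus strand. Windows of 300 bases around annotated starts were held for 6 of the 10 genes, and none for Wnt5a, Rspo3, Lgr5 and Sfrp1. Both sets of letters named here were searched on both strands in these windows, with no overlap between them. ATCAAAG was found once in the Wnt11 window shown, and in none of the windows of Wnt4, Rspo1, Lgr4, Lgr6 and Sfrp2 or in a second Wnt11 window, against 3.73% of 32817 windows of all genes. GACCACCCA, the letters best known to be bound by the Gli factors of Hedgehog signalling, was in none of the windows of these 6 genes and in 0.253% of all windows. A match is a description of the letters and not a bound site.

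Wnt11 is a ligand best known from the tips of the ureteric bud, and its gene lies at chr7:98835084-98854747. It was at 3.10 and 1.09 CPM among KO-labelled, 1.203 and 0.679 CPM among Het-labelled, 9.79 and 7.52 CPM among WT-labelled and 24.1 and 34.2 CPM among SmoM2-labelled libraries. The lowest SmoM2-labelled library was above both WT-labelled libraries, which were above all 4 KO- and Het-labelled libraries, while KO- and Het-labelled libraries overlapped. As raw counts, the KO-labelled pair held 14 and 5, the Het-labelled pair 9 and 4, the WT-labelled pair 105 and 69 and the SmoM2-labelled pair 236 and 296. The highest group mean was 31.0 times the lowest. The edgeR log2 change was 1.75 between SmoM2- and WT-labelled libraries, -2.05 between KO- and WT-labelled and -3.14 between Het- and WT-labelled libraries. The KO- against WT-labelled value was -1.49 without KO-labelled replicate 2 and -2.98 without KO-labelled replicate 1, so its size depends on those low counts.

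**Figure D1:**
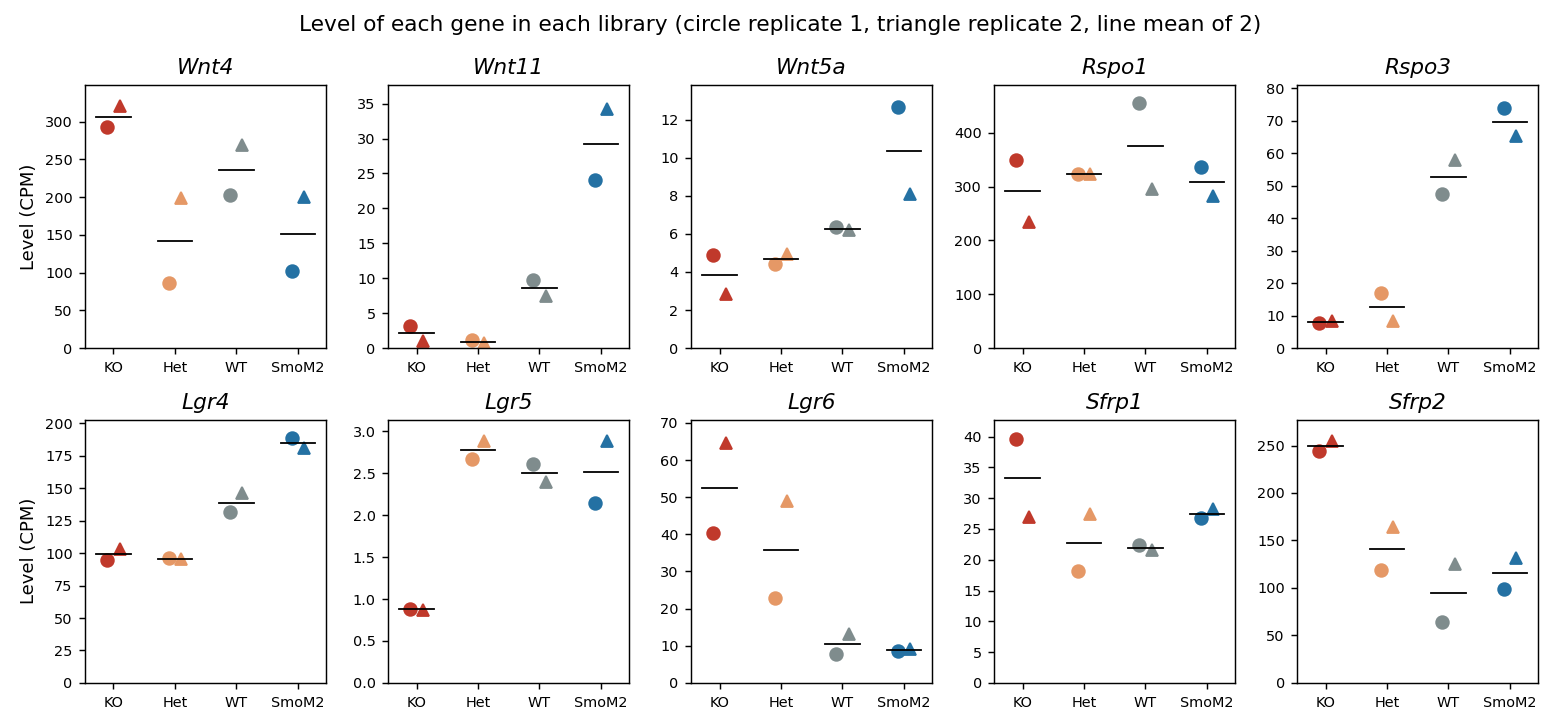
CPM of each of the 10 genes in each library, by labelled group, on linear axes that start at 0, with circles for replicate 1, triangles for replicate 2 and lines for the mean of 2. Wnt11 lies at 24.1 and 34.2 CPM among SmoM2-labelled libraries and at no more than 3.10 CPM in the KO- and Het-labelled libraries, Rspo3 and Lgr4 show the same order of sides, and Lgr6 shows the opposite one.

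Of 10 markers of the ureteric bud and collecting duct, Tfap2b had 0 counts in every library, Wnt9b at most 1 and Gata3 at most 2. Ret, the receptor that marks bud tips, had 0 and 2 counts in the KO-labelled, 2 and 4 in the Het-labelled, 21 and 12 in the WT-labelled and 15 and 11 in the SmoM2-labelled libraries. The summed level of the list was 147.6 to 157.43 CPM among KO-labelled, 198.55 to 206.66 CPM among Het-labelled, 185.41 to 193.65 CPM among WT-labelled and 231.72 to 243.05 CPM among SmoM2-labelled libraries, and most of it came from Etv5. The sum was thus highest in the SmoM2-labelled libraries, where Wnt11 was highest too. It was also higher among Het- than among WT-labelled libraries, and Etv5 differed that way, at 182 and 169 against 155 and 160 CPM. Ret, Krt8 and Krt18 were lower in both Het-labelled libraries than in both WT-labelled ones, as Wnt11 was, and Hoxb7 overlapped. The part of such cells in the Wnt11 values was not tested. In bulk samples, more cells of a type and more RNA per cell cannot be told apart. A long non-coding gene, Gm33770, overlaps Wnt11, and because the strand setting of the counting is not given in the sources used here, the Wnt11 counts carry that doubt.

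Among 12459 tested genes with an average of at least 1 log2 CPM, those whose log2 CPM followed that of Wnt11 most closely over the 8 libraries included Hmgn3, Arfip2, Gnb5 and Vit. Their Pearson's r lay between 0.982 for Vit and 0.992 for Hmgn3, over libraries that share their groups and their scaling. Hmgn3, a nucleosome-binding protein, had group means of 23.1, 16.7, 35.3 and 54.2 CPM from the KO- to the SmoM2-labelled libraries, a far smaller range than that of Wnt11. Vit, which encodes the matrix protein vitrin, was the low one, with group means of 0.441, 0, 2.21 and 6.05 CPM.

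Wnt4 is the ligand that drives committed progenitors into epithelium, and its gene lies at chr4:137277635-137299501. Its level was 292 and 320 CPM among KO-labelled, 85.7 and 198 CPM among Het-labelled, 203 and 268 CPM among WT-labelled and 103 and 200 CPM among SmoM2-labelled libraries. Both KO-labelled libraries were above all others, and the Het- and SmoM2-labelled libraries overlapped and were below the WT-labelled ones. The change between KO- and SmoM2-labelled libraries was 1.02 (SE 0.35, edgeR adjusted p 0.0425). That call was lost in 4 of 16 alternative analyses, and without SmoM2-labelled replicate 1 the change was 0.57 (edgeR adjusted p 0.288, range over the alternatives 2.09e-10 to 0.288). Between KO- and WT-labelled libraries the change was 0.38 (95% interval -0.37 to 1.13, edgeR adjusted p 0.451).

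Wnt4 was not called between KO- and Het-labelled libraries either (log2 change 1.11, SE 0.35, edgeR adjusted p 0.0673), although these libraries did not overlap. The threshold was passed in 9 of 16 alternative analyses, and leaving out Het-labelled replicate 1 gave 0.62 (edgeR adjusted p 0.332) where leaving out Het-labelled replicate 2 gave 1.82 (edgeR adjusted p 0.0227), over a range of 1.74e-11 to 0.332. The 5 genes closest to Wnt4 over the 8 libraries were Pdgfa, Prdx3, Bean1, Prkcq and Psd2, with r between 0.916 and 0.958. Pdgfa, a growth factor for mesenchymal cells, had group means of 59.4, 40.3, 49.3 and 42.2 CPM from the KO- to the SmoM2-labelled libraries.

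Wnt5a, a ligand that acts mainly through Ror receptors, lies at chr14:28504543-28527448 and was among the 3 least abundant of the 10 genes per length. It was at 4.87 and 2.83 CPM among KO-labelled, 4.41 and 4.93 CPM among Het-labelled, 6.34 and 6.21 CPM among WT-labelled and 12.7 and 8.09 CPM among SmoM2-labelled libraries. The group means followed the order of labelled Smo dose, with overlap between KO- and Het-labelled libraries. The difference passed the test only between the ends of that order, KO- against SmoM2-labelled, with a change of -1.43 (SE 0.35, edgeR adjusted p 0.0104) among the 5 comparisons made. It was -1.10 without KO-labelled replicate 2 (edgeR adjusted p 0.0738) and -1.12 without SmoM2-labelled replicate 1 (edgeR adjusted p 0.0776), neither past the threshold, over a range of 0.000288 to 0.0776.

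Rspo3 had the largest fall of the tested 9 genes. This R-spondin lies at chr10:29453106-29535867. It was at 7.75 and 8.27 CPM among KO-labelled, 17.1 and 8.32 CPM among Het-labelled, 47.5 and 57.8 CPM among WT-labelled and 73.8 and 65.2 CPM among SmoM2-labelled libraries. No group overlapped its neighbour in that order, although the lower Het-labelled library lay just above the KO-labelled ones. Set against WT-labelled libraries, edgeR gave a log2 change of -2.71 for KO-labelled (SE 0.28, adjusted p 0.000197) and -2.02 in the Het-labelled libraries (SE 0.25, adjusted p 0.000414). These falls of 6.56-fold and 4.06-fold passed the threshold in all 16 alternative analyses. The Het-labelled fall was -2.69 without Het-labelled replicate 1, close to the KO-labelled one, and -1.64 without Het-labelled replicate 2. SmoM2- and WT-labelled libraries differed by 0.40 (95% interval -0.08 to 0.88, edgeR adjusted p 0.757), and KO- and Het-labelled libraries by -0.69 (SE 0.31, edgeR adjusted p 0.175). The latter difference was -0.06 without Het-labelled replicate 1 and -1.11 without Het-labelled replicate 2 (edgeR adjusted p 0.0392, range 0.028 to 0.941).

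Rspo1, the other R-spondin, is made by the progenitors and lies at chr4:124986401-125009102. It was the most abundant of the 10 genes per length, between 110 and 210 RPKM (reads scaled by gene length and by library depth). In CPM it was at 350 and 234 in the KO-labelled, 323 and 323 in the Het-labelled, 454 and 295 in the WT-labelled and 336 and 283 in the SmoM2-labelled libraries. Every neighbouring pair of groups overlapped. None of the 5 comparisons called it, with changes between -0.36 (95% interval -0.83 to 0.11, edgeR adjusted p 0.243) for KO- against WT-labelled and -0.08 (95% interval -0.55 to 0.39, edgeR adjusted p 0.795) for KO- against SmoM2-labelled libraries. The KO- against WT-labelled change was -0.67 and passed the threshold without WT-labelled replicate 2 (edgeR adjusted p 0.043), and was -0.02 without WT-labelled replicate 1 (edgeR adjusted p 0.953), over a range of 0.0384, with no filter on low counts, to 0.953. Per length, Rspo1 was 9.39 times as abundant as Rspo3 in the WT-labelled libraries, and the difference between the responses of both genes was not tested. Gm12930, a long non-coding gene, overlaps Rspo1.

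**Figure D2:**
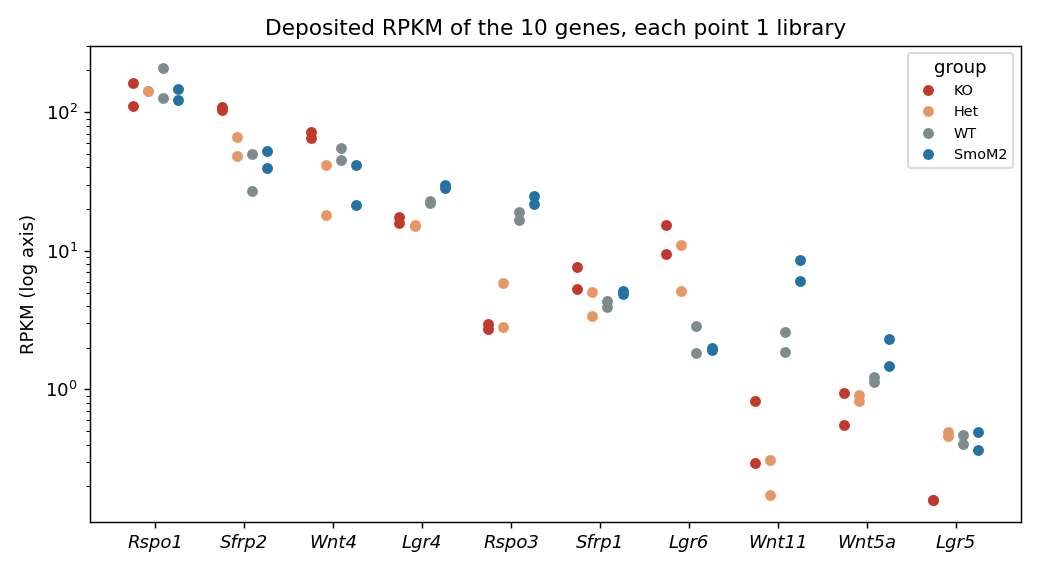
Deposited RPKM of the 10 genes on a log axis, ordered by their median over the 8 libraries, with each point 1 library coloured by labelled group. Rspo1 stays between 110 and 210 RPKM in all libraries, Rspo3 ranges from 2.74 to 24.6 RPKM and Wnt11 from 0.172 to 8.56 RPKM.

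Stromal cells of the kidney also make Rspo3, so 12 stromal markers were measured beside it. Their summed level was 334.83 to 862.65 CPM among KO-labelled, 393.8 to 573.58 CPM among Het-labelled, 376.63 to 589.69 CPM among WT-labelled and 597.15 to 732.93 CPM among SmoM2-labelled libraries, so the sums of KO- and WT-labelled libraries overlapped. Foxd1, the factor that defines the cortical stroma, did move with Rspo3. It was at 12.8 and 3.70 CPM among KO-labelled, 22.5 and 14.6 CPM among Het-labelled, 197 and 171 CPM among WT-labelled and 385 and 301 CPM among SmoM2-labelled libraries. Meis1, another stromal factor, ran the other way, with 86.4 to 114.3 CPM in the KO- and Het-labelled and 10.43 to 16.97 CPM in the WT- and SmoM2-labelled libraries. Pdgfra overlapped between all groups, at 5.44 to 17.2 CPM. The part of stromal cells in the Rspo3 values was not tested.

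The 3 Lgr receptors each had a pattern of their own. Lgr4, at chr2:109917647-110014257, is the broadly expressed receptor. It was at 94.99 and 103 CPM among KO-labelled, 96.1 and 95.3 CPM among Het-labelled, 131 and 147 CPM among WT-labelled and 189 and 181 CPM among SmoM2-labelled libraries. KO- and Het-labelled libraries overlapped and were below the WT-labelled ones, which were below the SmoM2-labelled ones. The edgeR log2 change from WT-labelled libraries was -0.49 for KO-labelled (SE 0.12, adjusted p 0.0146), -0.54 for Het-labelled (SE 0.12, adjusted p 0.00807) and 0.41 in the SmoM2-labelled libraries (SE 0.12, adjusted p 0.283). The first was not called without KO-labelled replicate 1 (adjusted p 0.0821) or WT-labelled replicate 2 (0.0676), over a range of 0.00496 to 0.0821, and the second was not called without Het-labelled replicate 1 (0.0516) or replicate 2 (0.062), over a range of 0.00211 to 0.062. KO- and SmoM2-labelled libraries differed by -0.90 (SE 0.12, edgeR adjusted p 0.000354), which all 16 alternatives called.

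Lgr6, at chr1:134983300-135105374, ran opposite to Lgr4. It was at 40.3 and 64.7 CPM among KO-labelled, 22.7 and 49.1 CPM among Het-labelled, 7.83 and 13.1 CPM among WT-labelled and 8.69 and 9.01 CPM among SmoM2-labelled libraries. All KO- and Het-labelled libraries were above all WT- and SmoM2-labelled libraries, with overlap within each side. Compared with WT-labelled libraries, it rose by 2.34 for KO-labelled (SE 0.36, edgeR adjusted p 0.0016), a 5.05-fold difference, and by 1.78 in the Het-labelled libraries (SE 0.36, edgeR adjusted p 0.00552). The rise in the KO-labelled libraries was called in all 16 alternatives. The rise in the Het-labelled libraries was 1.11 without Het-labelled replicate 2 (edgeR adjusted p 0.058, range 1.12e-14 to 0.058). Lgr4 was at 22.5 RPKM in the WT-labelled libraries against 2.35 RPKM for Lgr6, and at 16.7 against 12.4 RPKM in the KO-labelled libraries.

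Lgr5, at chr10:115450314-115587780, is known from early nephron segments and from stem cells of other epithelia. It was the least abundant gene by its median RPKM, with 4 and 4 counts in the KO-labelled, 20 and 17 in the Het-labelled, 28 and 22 in the WT-labelled and 21 and 25 in the SmoM2-labelled libraries. On the CPM scale the KO-labelled pair was at 0.886 and 0.871, the Het-labelled at 2.67 and 2.89, the WT-labelled at 2.61 and 2.40 and the SmoM2-labelled at 2.15 and 2.89. The KO-labelled libraries were below all others, which did not separate by Smo. Lgr5 and Wnt11 were kept by the filter on low counts only through groups where they were high, so the Lgr5 changes of -1.50 from WT- to KO-labelled and from SmoM2- to KO-labelled libraries are a description. The latter passed the threshold with these 8 libraries and did not in 11 of its 15 alternatives, those without 1 library of any group included, and A930009A15Rik overlaps Lgr5.

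Sfrp2, at chr3:83765750-83774314, is expressed in early nephrons and is known to depend on Wnt4 in the kidney. It was at 244 and 254 CPM among KO-labelled, 119 and 164 CPM among Het-labelled, 64.2 and 125 CPM among WT-labelled and 99.4 and 131 CPM among SmoM2-labelled libraries. Both KO-labelled libraries were above all others, and the other 3 groups overlapped as neighbours. The KO- against WT-labelled rise was 1.40 (SE 0.26, edgeR adjusted p 0.00418), a 2.64-fold difference called in all 16 alternatives. Its size ranged from 0.99 without WT-labelled replicate 1 to 1.92 without WT-labelled replicate 2. Het- and WT-labelled libraries differed by 0.58 (95% interval 0.01 to 1.15, edgeR adjusted p 0.125). That difference was 1.11 and called without WT-labelled replicate 2 (edgeR adjusted p 0.00609) and 0.17 without WT-labelled replicate 1 (edgeR adjusted p 0.615), over a range of 0.000927, with no filter on low counts, to 0.615.

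Sfrp1, at chr8:23411383-23449632, was not called with all 8 libraries. It was at 39.6 and 27.0 CPM among KO-labelled, 18.2 and 27.3 CPM among Het-labelled, 22.4 and 21.6 CPM among WT-labelled and 26.8 and 28.2 CPM among SmoM2-labelled libraries. Every neighbouring pair in the order of group means overlapped. The KO- against WT-labelled change was 0.60 (95% interval 0.10 to 1.10, edgeR adjusted p 0.0772). It was 0.84 and called without KO-labelled replicate 2 (edgeR adjusted p 0.0385) and 0.29 without KO-labelled replicate 1 (edgeR adjusted p 0.476), over a range of 0.0268, with no filter on low counts, to 0.476.

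Markers of the renal vesicle, the first epithelial stage of the nephron, were measured beside Lgr6, Sfrp2 and Wnt4. The summed level of 10 such markers was 1149.8 to 1476.9 CPM among KO-labelled, 517.71 to 677.19 CPM among Het-labelled, 573.38 to 658.72 CPM among WT-labelled and 523.62 to 647.88 CPM among SmoM2-labelled libraries. Of the 10, 8 were called higher and 1 lower in KO- against WT-labelled libraries, and 2 higher and 2 lower in Het- against WT-labelled libraries. Over all tested genes 11.6% were called higher and 11.4% lower in the former comparison and 13.1% and 12.2% in the latter, so the Het-labelled counts were near the share of all genes. Lhx1, a defining factor of the renal vesicle, was at 62.2 and 122 CPM among KO-labelled and at 4.50 to 10.9 CPM in all other libraries. Sfrp2 and Wnt4 were highest in the same libraries as the sum of this list. Lgr6 was also high in the Het-labelled libraries, where the sum was not, but members of the list moved in opposite directions there. Fgf8 was at 64.3 and 69.0 CPM in the Het- against 4.01 and 8.28 CPM in the WT-labelled libraries. Pax8 was at 270 and 298 against 156 and 173 CPM, and Bmper was lower, at 69.4 and 72.5 against 252 and 204 CPM. The part of such cells in these values was not tested.

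Erythroid markers were higher on the same side as Lgr6 and on the opposite side to Rspo3. Immune and endothelial markers did not divide that way. The summed level of 5 erythroid genes, globins for the most part, was 13.715 to 45.17 CPM among KO-labelled, 19.872 to 24.863 CPM among Het-labelled, 4.1016 to 5.2279 CPM among WT-labelled and 2.7737 to 7.8732 CPM among SmoM2-labelled libraries. Of 4 tested, 3 were called higher in KO- and 2 in Het- against WT-labelled libraries, where 11.6% and 13.1% of all genes were. Fewer were called without KO-labelled replicate 1 in the former and without Het-labelled replicate 2 in the latter. Hba-a1 and Hba-a2 had identical counts in every library, so their calls are not independent of each other. Hba-a1 was at 1.025 and 1.198 CPM in the WT-labelled libraries, and these counts of calls are a description. Cldn5, a tight junction gene of endothelium, was at 22.14 and 16.98 CPM among KO-labelled and at most 2.07 CPM elsewhere, while Pecam1, Cdh5, Kdr and Tek stayed at or below 1.53 CPM in every library. Of 5 immune markers, Ptprc was at 0 to 0.17 CPM, and the summed level was 13.933 to 17.935 CPM among KO-labelled, 43.312 to 47.186 CPM among Het-labelled and 24.744 to 31.204 CPM among the other libraries, most of it from Cd68. The part of these cells in the members' values was not tested.

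Counted over the comparisons, KO- against WT-labelled libraries called 4 of the 9 tested genes, Lgr6 and Sfrp2 higher and Rspo3 and Lgr4 lower, where 23% of all 13459 tested genes were called. By direction, 11.6% of all genes were called higher and 11.4% lower. The median change of the 9 genes was -0.36, against 0.03 over all tested genes. Leaving out Lgr5, kept by the filter only outside the KO-labelled group, the count was 4 of 8 and the median 0.01. Het- against WT-labelled libraries called 3 of 9, Lgr6 higher and Rspo3 and Lgr4 lower, against 25.3% of all genes, with 13.1% higher and 12.2% lower. The median change of the 9 was -0.22, against -0.02 over all genes. Both comparisons share the WT-labelled libraries. As the list was drawn up with results known, its share is a description.

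**Figure D3:**
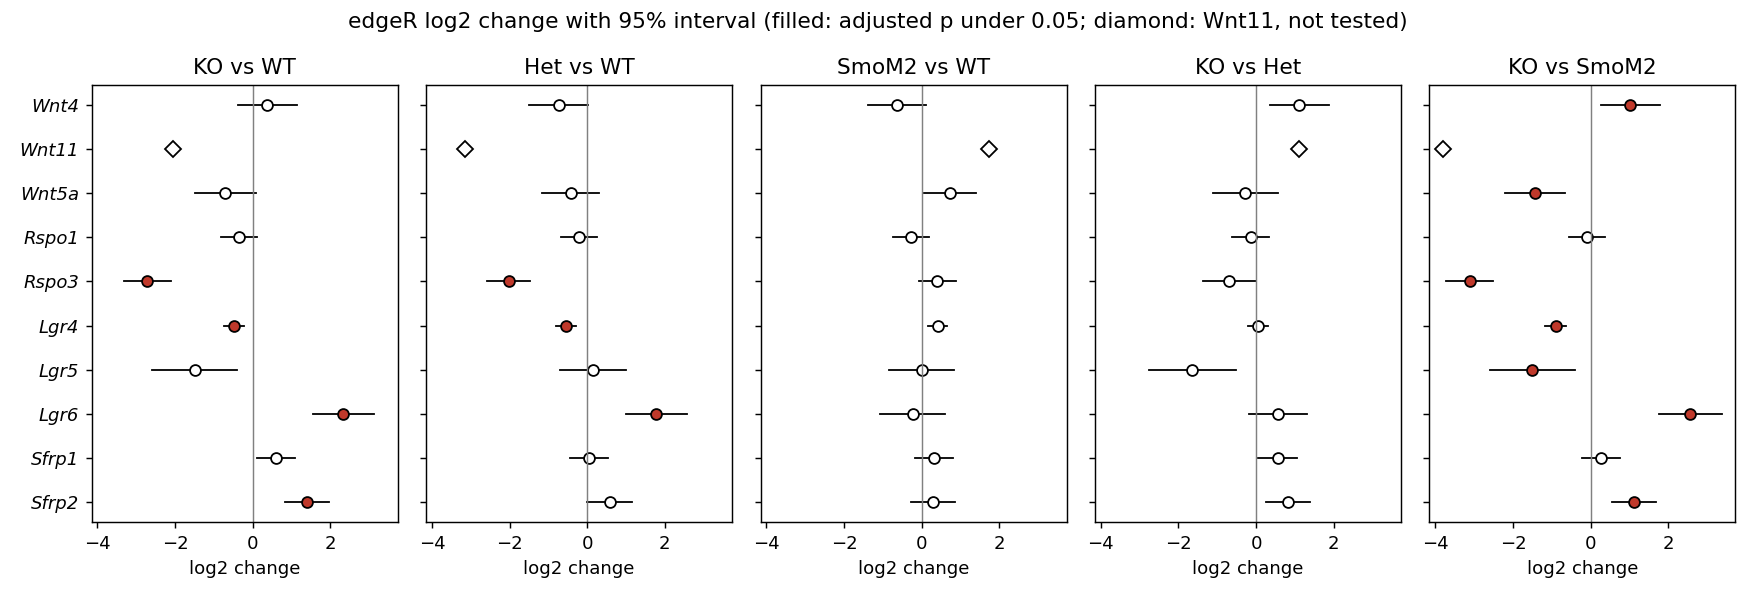
edgeR log2 changes of the 10 genes in 5 comparisons, with horizontal lines for 95% intervals, filled circles where the adjusted p was under 0.05, and diamonds for Wnt11, which was not tested. Rspo3 and Lgr4 lie to the left and Lgr6 to the right of 0 in KO vs WT and in Het vs WT, and no circle is filled in SmoM2 vs WT or in KO vs Het.

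SmoM2- against WT-labelled libraries, the comparison that asks what an active Smo adds, called 0 of the 9 genes by edgeR and 0 by DESeq2, where edgeR called 0.223% of all genes, 0.156% higher and 0.0669% lower. Without adjustment 2 of 9 had edgeR p under 0.05, a description, as no share of all genes at that unadjusted cut-off is given. These were Lgr4 and Wnt5a, the latter with a change of 0.73 (95% interval 0.06 to 1.40, edgeR adjusted p 0.612). For Lgr5 the interval ran from -0.84 to 0.84 and for Lgr6 from -1.06 to 0.60, so differences of that size were not detectable with these libraries. The Hedgehog target Ptch1 changed in the same comparison by 1.18 (SE 0.11, edgeR adjusted p 0.00219).

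KO- against Het-labelled libraries, the pair on the low side of Smo, also called 0 of 9 by edgeR and 0 by DESeq2, against 9.43% of all genes, 4.33% higher and 5.1% lower. Without adjustment 5 of 9 had edgeR p under 0.05, namely Wnt4, Rspo3, Lgr5, Sfrp1 and Sfrp2. No share of all genes at that unadjusted cut-off is given beside them, and Lgr5 is affected by the filter, so this count is a description. Sfrp2 was higher in the KO-labelled libraries by 0.82 (95% interval 0.25 to 1.39, edgeR adjusted p 0.069). Sex cannot be told apart from genotype between KO- and Het-labelled libraries. A fit with sex as a covariate takes its sex effect from the WT- and SmoM2-labelled libraries alone, where sex follows replicate number. With sex as a covariate 2 of 9 were called, Wnt4 at 1.79 (edgeR adjusted p 0.0285, range 1.74e-11 to 0.332) and Sfrp2 at 1.50 (edgeR adjusted p 0.0103, range 2.95e-06 to 0.343). Leaving out Lgr5, KO- against SmoM2-labelled libraries called 6 of 8, with Wnt4, Lgr6 and Sfrp2 higher and Wnt5a, Rspo3 and Lgr4 lower, against 32.5% of all genes, 16.5% higher and 16% lower. With Lgr5 counted the calls were 7 of 9, and 3 of 9 without SmoM2-labelled replicate 1 and 4 of 9 without KO-labelled replicate 2.

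Among the other 16 Wnt ligands, 6 were abundant enough to test. In KO- and in Het- against WT-labelled libraries 1 of these 6 was called higher, where 11.6% and 13.1% of all genes were. These counts were near the share of all genes. Wnt5b was the ligand called in both comparisons. It was at 34.8 ± 3.37 CPM among KO-labelled, 41.1 ± 7.24 CPM among Het-labelled and 21.7 ± 0.098 CPM among WT-labelled libraries (n = 2 each), with changes of 0.68 (SE 0.20, edgeR adjusted p 0.0331) and 0.91 (SE 0.20, edgeR adjusted p 0.00746). The former was not called without any 1 of the KO- and WT-labelled libraries (0.57 and edgeR adjusted p 0.169 without KO-labelled replicate 1), and the latter not without Het-labelled replicate 2 (0.71, edgeR adjusted p 0.0828). Wnt9b, the bud-derived inducer, had at most 1 count in any library. The remaining R-spondins Rspo2 and Rspo4 had at most 6 counts in any library and were not tested. Neither Znrf3 nor Rnf43, the ligases that R-spondins counter, was called in any of the 5 comparisons, and the same held for Porcn and Wls, which modify and export Wnt proteins. Over all genes these comparisons called between 0.223% and 32.5%, so the lack of calls among so few genes is a description.

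All 18 Wnt receptors and co-receptors on the list were tested. In KO- against WT-labelled libraries 3 were called higher, 6 lower and 9 were not called, with a median change of -0.10 over the list and 0.03 over all genes, of which 11.6% were called higher and 11.4% lower. Without KO-labelled replicate 1 the counts were 1 and 1, and without WT-labelled replicate 2 they were 1 and 3. The largest falls were in Ror1, a Wnt5a receptor, at -2.23 (SE 0.28, edgeR adjusted p 0.000451), and in the Frizzled receptors Fzd4 (-1.08) and Fzd6 (-0.70). Fzd10 (1.17), the glypican Gpc4 (0.86) and Fzd7 (0.51) were the 3 called higher. Of these 6, Ror1 and Gpc4 were called in all 16 alternatives, and the 4 Frizzled genes lost their call without KO-labelled replicate 1. In Het- against WT-labelled libraries 7 rose and 2 fell, against 13.1% and 12.2% of all genes, so the falls were near that share. The falls were in Fzd6 at -2.51 (SE 0.24, edgeR adjusted p 0.000104) and Ror1 at -1.44 (SE 0.24, edgeR adjusted p 0.00202). Fzd7 (0.84), Fzd1 (0.84) and Ror2 (0.83) led the 7, of which 2 were called without Het-labelled replicate 1 and 3 without Het-labelled replicate 2. Fzd6 was at 12.7 ± 2.64 CPM among KO-labelled, 3.62 ± 0.399 CPM among Het-labelled and 20.6 ± 0.703 CPM among WT-labelled libraries, and it was the 1 receptor called higher in KO- against Het-labelled libraries, where 5 were called lower and 4.33% of all genes were called higher and 5.1% lower. Without Het-labelled replicate 1 none of these 6 passed the threshold (Fzd6 1.70, edgeR adjusted p 0.0782), and without either KO-labelled library none of the 5 did. None of the 18 was called between SmoM2- and WT-labelled libraries, where 0.223% of all genes were, so this count was near that share.

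Of 16 other secreted Wnt modulators, 14 matched a symbol and 11 were tested. Frzb, a further Sfrp family member, and Dkk3, a Dickkopf family member, were the 2 that passed the test in KO- against WT-labelled libraries, both lower, where 11.4% of all genes were. In Het- against WT-labelled libraries 4 of 11 were called lower, against 12.2% of all genes, and fewer without Het-labelled replicate 1. Wif1 is among the 4, although the filter on low counts kept it only through groups where it was high. That call is therefore a description. Frzb was at 12.3 ± 2.96 CPM among KO-labelled, 11.3 ± 6.56 CPM among Het-labelled, 70.3 ± 1.18 CPM among WT-labelled and 81.2 ± 5.79 CPM among SmoM2-labelled libraries. Its change was -2.51 (SE 0.29, edgeR adjusted p 0.000305) for KO-labelled and -2.67 (SE 0.28, edgeR adjusted p 0.00015) in the Het-labelled libraries. Dkk3 changed by -2.14 and -1.59 in the same comparisons. Wif1, a secreted Wnt binder, had 0 counts in both Het-labelled, 10 and 9 in the WT-labelled and 19 and 21 in the SmoM2-labelled libraries. It was at least 2.1-fold lower in the Het- than in the WT-labelled libraries, computed against a floor of 3 counts per library. Its call was lost without either Het-labelled library. Within the Sfrp family, Frzb and Sfrp2 thus ran in opposite directions between KO- and WT-labelled libraries.

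**Figure D4:**
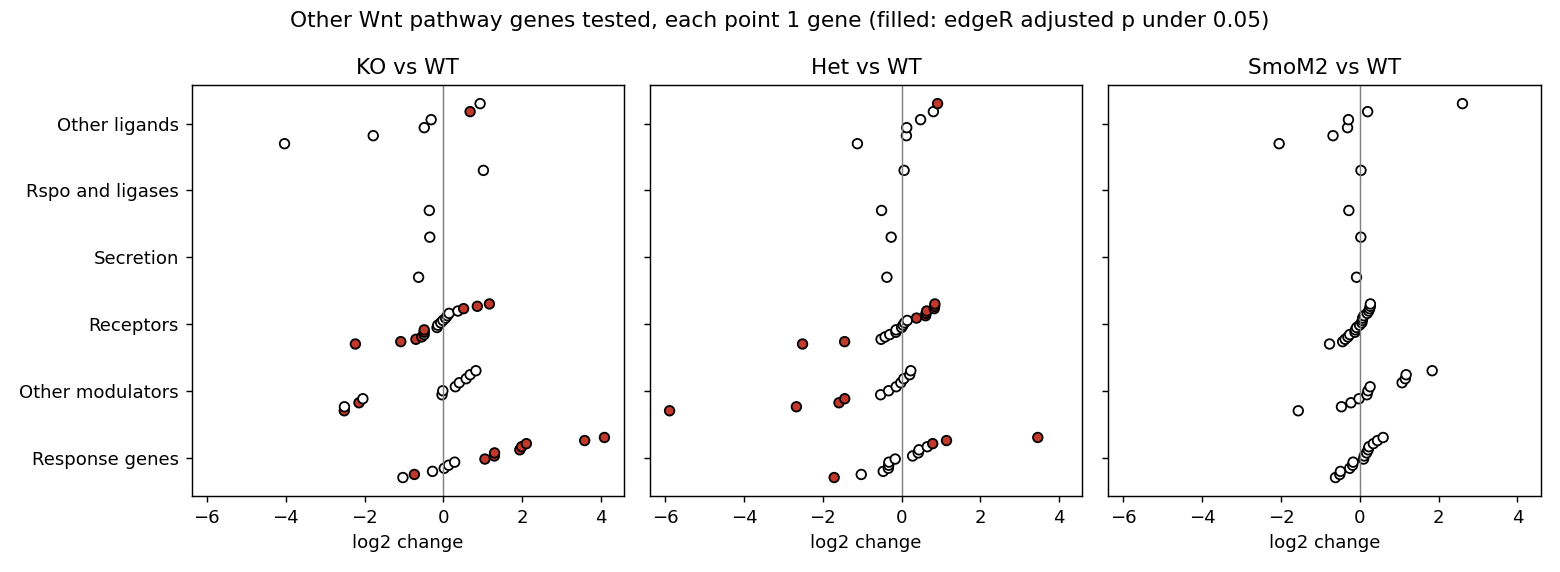
edgeR log2 change of each tested gene of 6 Wnt pathway lists against WT-labelled libraries, 1 point per gene, filled where the adjusted p was under 0.05. Response genes reach 4.09 (Fgf8) in KO vs WT, and Frzb and Dkk3 lie at or below -1.59 in KO vs WT and Het vs WT. No point is filled in SmoM2 vs WT, where 0.223% of all genes were called.

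The 14 genes known to respond to Wnt signalling were all tested, and several of them also mark early nephrons. Fgf8, Lhx1, Pax8, Ccnd1 and Jag1 are among the renal vesicle markers counted above, so both lists are not independent. Each of these shared genes was called higher in KO- against WT-labelled libraries. In KO- against WT-labelled libraries 8 were called higher, 1 lower and 5 were not called, with a median change of 1.17, against 0.03 over all genes, of which 11.6% were called higher and 11.4% lower. Fgf8 (4.09, SE 0.28, edgeR adjusted p 2.28e-05), Lhx1 (3.58) and Bmp4 (2.11) led the rises. Axin2, the most general feedback target of beta-catenin, was the 1 called lower. It was at 66.2 ± 11.3 CPM among KO-labelled, 87.5 ± 7.45 CPM among Het-labelled, 110 ± 30.3 CPM among WT-labelled and 151 ± 5.54 CPM among SmoM2-labelled libraries, with a KO- against WT-labelled change of -0.74 (SE 0.19, edgeR adjusted p 0.0173). That change was -0.57 without KO-labelled replicate 1 (edgeR adjusted p 0.13) and -0.43 without WT-labelled replicate 1 (edgeR adjusted p 0.126). Lef1, a DNA-binding partner of beta-catenin, rose by 1.30 (SE 0.43, edgeR adjusted p 0.0474), and was not called without either KO-labelled library or WT-labelled replicate 1 (0.89, edgeR adjusted p 0.206).

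In Het- against WT-labelled libraries 3 response genes were called higher, Fgf8 (3.46), Nkd1 (1.14) and Pax8 (0.79), and Cdkn1a was called lower (-1.71), with a list median of 0.06, against -0.02 over all genes, of which 13.1% were called higher and 12.2% lower. Cdkn1a was not called without Het-labelled replicate 1 or WT-labelled replicate 1 (-1.18 without the latter, edgeR adjusted p 0.0648). Axin2 differed there by -0.34 (95% interval -0.73 to 0.06, edgeR adjusted p 0.197). Between KO- and Het-labelled libraries 6 were called higher, led by Lhx1 (3.75), Ccnd1 (3.01) and Lef1 (1.63), and 0 lower, against 4.33% and 5.1% of all genes. Lhx1 alone was called without Het-labelled replicate 1, and 3 were called without KO-labelled replicate 2. None of the 14 was called between SmoM2- and WT-labelled libraries by edgeR, where 0.223% of all genes were, so this count too was near that share.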

How the data were processed

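The deposited table holds raw counts and RPKM values for every library beside a gene length, per the file headers. Per the submitters' processing notes, STAR, featureCounts and Subread were used with build mm10, and versions, annotation and strand setting are not given in the sources used here. RPKM values served to compare levels between genes and, through the totals they imply, as an alternative scaling. The test on counts used edgeR 4.0.16 (R 4.3.3), after filterByExpr on the groups (13459 genes) and scaling by trimmed means of M values. All 8 libraries entered the same quasi-likelihood model, with group means as its terms and 4 residual degrees of freedom. Its KO vs WT test was also run on simulated counts, drawn with the spread fitted to these libraries. Such counts hold no batch or sex effect, so that run cannot show that the test holds for these libraries. P-values are two-sided, with Benjamini-Hochberg adjustment over all tested genes and a threshold of 0.05. An exact permutation test of 2 libraries against 2 cannot go below p = 0.333, so none was made. CPM are counts per scaled library size, given with SD of 2 libraries, and log2 CPM used a prior count of 2. Standard errors and 95% intervals are those the quasi-likelihood statistic implies.

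The members, comparisons and gene lists were chosen with earlier results of these data known. From each pathway list, up to 3 genes per direction and comparison were named by largest change, among called genes whose libraries did not overlap, and 7 reference genes could always be named. Other list genes named were singled out after their values were seen. Coordinates and promoter windows come from RefSeq on GRCm38.p6, which is the assembly of mm10. Alternatives included DESeq2 1.42.0. Of the 5 genes whose levels were most like those of Wnt11, 1 is not reported here.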

Additional observations from a re-analysis of the deposited data

How the results depend on the processing

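The changes and calls of the members were recomputed under 16 alternatives (15 for Lgr5 and Wnt11, which the stricter filter drops), 8 of which leave out 1 library and assume that the remaining library of its group varies like the others. Depth limits Lgr5 and Wnt11 most, with 4 to 14 counts in the KO-labelled libraries. Of 789 recomputed changes of member genes, 20 reversed, and none of those had passed the threshold. The order of the group means held for all 10 genes with DESeq2 size factors and for 8 with the totals that RPKM values imply, where Rspo1 and Lgr5 changed. With those totals the KO- against SmoM2-labelled change of Rspo1 was 0.011 and the SmoM2- against WT-labelled change of Lgr5 was -0.0388. With sex as a covariate the Het- against WT-labelled change of Rspo1 was 0.031 and the SmoM2- against WT-labelled change of Lgr5 -0.0075. With only the 2 groups compared that Lgr5 change was -0.0011. The cause was not tested.

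The replicate numbers are shared between groups. Deviations of same-numbered libraries correlated between -0.0606 and 0.391, and over 0.1 in 1 of 6 pairs of groups. That pair was the WT- and SmoM2-labelled groups (0.391), where same-numbered libraries also shared the sex pattern. As the other pairs of groups stayed under 0.1, the numbers were not taken as pairs. With the replicate block the tested genes called were 5 in Het vs WT and 2 in KO vs Het, genes called over the table in SmoM2 vs WT were 54, and the Lgr5 change there was -0.0059.

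Members called moved with other settings too. In Het vs WT 5 were called with no filter. In SmoM2 vs WT 1 was called with no filter. In KO vs Het 2 were called with the totals that RPKM values imply, 3 with no filter and 2 with only the 2 groups compared. With sex as a covariate, which follows genotype between these groups, 2 were called. Leaving out 1 library gave 0 to 2 in KO vs Het and 3 to 6 in KO vs SmoM2. Over all genes, SmoM2 vs WT called 30 genes, and 82 with DESeq2, 356 with no filter, 8 with only the 2 groups compared and 54 with sex as a covariate. KO vs Het called 1269 and, with no filter, 2217. Leaving out 1 library gave 1304 to 2924 genes in KO vs WT, 1401 to 3615 in Het vs WT, 8 to 81 in SmoM2 vs WT, 36 to 1472 in KO vs Het and 2423 to 4440 in KO vs SmoM2.

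Leaving out 1 library also reversed changes that were not called. Over these fits the change of Wnt5a in KO vs Het ran from -0.718 to 0.058, of Rspo1 in Het vs WT from -0.52 to 0.13, in SmoM2 vs WT from -0.542 to 0.0671, in KO vs Het from -0.464 to 0.109 and in KO vs SmoM2 from -0.40 to 0.17, of Lgr4 in KO vs Het from -0.0183 to 0.102, of Lgr5 in SmoM2 vs WT from -0.21 to 0.22, of Lgr6 in SmoM2 vs WT from -0.56 to 0.19, of Sfrp1 in Het vs WT from -0.29 to 0.28 and in KO vs SmoM2 from -0.0292 to 0.521, and of Sfrp2 in SmoM2 vs WT from -0.12 to 0.86.

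The same alternatives were applied, after the data had been seen, to the pathway genes called in 4 comparisons and to Ptch1. Of these 52 changes, 22 passed the threshold throughout and none reversed.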
